A study of Homo sapiens with 12 samples.

Results

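The comparison asked what a rise in dose of SLMP53-2 from 28 to 42 µM added to the expression profile of HuH-7 cells. HuH-7 is an established human hepatocellular carcinoma line, and all cells of the study carried its mutant p53, with the Y220C substitution. The members were all gene probes of the 4 arrays of cells given 42 µM SLMP53-2 and of the 4 arrays of cells given 28 µM, which is 8 of the 12 arrays of the study. The other 4 arrays, of cells given the solvent DMSO, served as the zero dose. All 12 cultures were harvested 24 h after treatment, the labels call the 4 samples of a treatment biological replicates, and all came from the 1 cell line. The doses correspond to 2 and 3 times the IC50 for growth. The high dose reads 42 µM in the titles and in the protocol but 48 µM in the treatment field, and 42 µM is used throughout. RNA was labelled with Cy3 and hybridised to 1-colour Agilent arrays with 41000 different gene probes, of which 33467, standing for 24167 gene names, were bright enough to test. Values are normalized log2 signals, so that a difference of 1 is a doubling, and differences between doses are 42 minus 28 µM with the 95% confidence interval (CI).

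One array stood apart from its group before any comparison of doses. Over the 379 genes (1.57% of 24167) that rose at 42 µM against DMSO, the median change from the DMSO mean was 0.79, 0.91 and 0.82 on 28 µM replicates 1 to 3 but 0.15 on replicate 4, and it was 0.99, 1.15, 0.89 and 0.76 on the 42 µM arrays. Over the 345 genes (1.43%) that fell, replicate 4 of 28 µM stood at -0.14, against -0.65, -0.89 and -0.68 on its fellow replicates and -0.96, -1.19, -0.79 and -0.75 at 42 µM. These genes were chosen on the 42 µM arrays, so the levels are a description, in which replicate 4 lay between DMSO and the other 28 µM arrays. Medians of gene groups are given with and without this array, and differences of single genes without it unless all arrays are named. With replicate 4, limma called 0 genes (0 percent) at 28 µM against DMSO in either direction, at an adjusted p below 0.05 and a log2 difference of at least 0.6, whereas without it 350 genes (1.45%) rose and 236 (0.977%) fell. The model without replicate 4 also called more genes at 42 µM against DMSO, 539 (2.23%) higher and 452 (1.87%) lower. All 12 hepatocyte and hepatoma markers examined, ALB, AFP and GPC3 among them, were detected on all 12 arrays. The leukocyte gene PTPRC, the fibroblast gene POSTN and the endothelial gene TEK were detected on 0 arrays, but 10 of the 18 markers of those cell types were detected on all 12, among them COL1A2 of fibroblasts, with a mean log2 signal of 10.13 at 28 µM and 10.04 at 42 µM, and LUM, with 8.01 at 28 µM and 7.96 at 42 µM. The part of other cell types in the results was not tested. Of the markers of other cell types, LYZ of macrophages had the largest difference between doses with all arrays, -0.58 (-0.19 without 28 µM replicate 4), and DCN of fibroblasts the largest without that array, 0.45 (0.38 with all arrays).

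The pathways followed here are those that stressed and dividing liver cells use. In the integrated stress response, kinases that sense misfolded protein, amino acid shortage or other damage phosphorylate eIF2α, general translation slows, and the transcription factor ATF4 is made in its place; ATF4 and its partners bind C/EBP-ATF elements in genes for amino acid supply, tRNA charging and feedback control. SREBP transcription factors are released from the endoplasmic reticulum when sterols are scarce and drive the genes of cholesterol synthesis and uptake. E2F factors switch on the genes of DNA replication at the start of S phase, and the DREAM and MuvB complexes, through CHR elements and nearby CCAAT boxes, hold back and then release the genes of mitosis. Both sets are silenced when cells stop dividing.

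Promoters of 4 genes are shown because they carry the letters of such elements and come from a group whose medians were close at the doses and from one whose medians were farther apart, once 28 µM replicate 4 was left out, ASNS and CHAC1 for stress and CDK1 and KIF18A for mitosis. Whether these letters work as elements was not tested. They are RefSeq sequences of GRCh38.p14 from 250 bases before to 50 bases after the start of the gene, read along the gene's own strand, with capitals for the C/EBP-ATF core TGATGNAA or its reverse complement in the stress genes and for TTTGAA and CCAAT in the mitotic ones.
ASNS (chr7:97872359-97872658, minus strand): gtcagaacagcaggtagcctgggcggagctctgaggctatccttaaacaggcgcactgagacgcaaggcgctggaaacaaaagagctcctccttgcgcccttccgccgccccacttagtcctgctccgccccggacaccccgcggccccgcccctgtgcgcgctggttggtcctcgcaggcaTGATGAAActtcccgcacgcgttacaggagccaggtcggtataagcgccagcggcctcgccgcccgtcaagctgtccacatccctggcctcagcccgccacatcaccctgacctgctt
CHAC1 (chr15:40953221-40953520, plus strand): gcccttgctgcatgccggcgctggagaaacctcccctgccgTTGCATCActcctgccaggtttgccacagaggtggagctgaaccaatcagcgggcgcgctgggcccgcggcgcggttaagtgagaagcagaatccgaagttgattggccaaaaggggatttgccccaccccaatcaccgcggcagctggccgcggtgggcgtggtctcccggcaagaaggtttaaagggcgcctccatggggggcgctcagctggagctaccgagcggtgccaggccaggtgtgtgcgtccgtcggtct
CDK1 (chr10:60778081-60778380, plus strand): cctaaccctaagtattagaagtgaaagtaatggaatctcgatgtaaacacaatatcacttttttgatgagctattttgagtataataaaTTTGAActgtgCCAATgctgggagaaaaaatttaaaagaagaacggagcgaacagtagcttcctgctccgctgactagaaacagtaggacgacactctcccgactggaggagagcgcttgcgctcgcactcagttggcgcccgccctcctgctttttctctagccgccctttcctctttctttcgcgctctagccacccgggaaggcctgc
KIF18A (chr11:28108107-28108406, minus strand): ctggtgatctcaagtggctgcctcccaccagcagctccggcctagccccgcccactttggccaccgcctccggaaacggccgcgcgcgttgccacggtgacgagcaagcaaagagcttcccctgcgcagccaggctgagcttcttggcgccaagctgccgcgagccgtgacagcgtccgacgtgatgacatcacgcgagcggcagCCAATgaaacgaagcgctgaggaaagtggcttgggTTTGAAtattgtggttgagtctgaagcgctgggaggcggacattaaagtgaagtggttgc
In the ASNS promoter the core began 68 bases before the start, and in that of CHAC1 its reverse complement began 209 bases before it. For KIF18A the CCAAT and TTTGAA letters began 45 and 10 bases before the start, and for CDK1 they began 150 and 161 bases before it. Searched on both strands, with overlaps allowed between motifs, TGATGNAA was found in 16 of 57 matched stress promoters (28.1%) and in 3.67% of all 27305 promoters, while TTTGAA was found in 41 of 76 mitotic promoters (53.9%) against 15.4% of all. CCAAT was present in 51 of 76 mitotic promoters (67.1%), in 83 of 129 S phase promoters (64.3%) and in 35.7% of all promoters. The E2F-like letters TTTCCCGC occurred in 15 of 129 S phase promoters (11.6%) and in 1.66% of all. These counts describe the letters of the sequences and not binding.

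No gene was called different between 42 and 28 µM SLMP53-2 at the same limits. The count was 0 of 33467 probes (0 percent), and the smallest limma adjusted p was 0.999612 with all arrays and 0.999821 without 28 µM replicate 4. Before adjustment, 818 probes (2.44%) passed 0.05 with all arrays and 598 (1.79%) without that replicate. Both shares were below the 0.05 of probes that this limit would pass if no probe differed. Intervals of single genes that leave out 0 are therefore given below as descriptions. Up to 2 genes of each list, EXO1, CDK1, NUF2, SLC3A2, ABCG5 and CCNG1 among them, were picked for the largest difference without replicate 4. That choice favours such intervals. Over the 24167 genes, 1.12% passed 0.05 as higher at 42 µM and 1.46% as lower, and without replicate 4 these shares were 1.07 and 0.823%. With a gene counted by any of its tested probes, 38 passed and were at least 0.6 higher at 42 µM and 55 at least 0.6 lower. Without replicate 4 these counts were 37 and 39. They depended on single libraries, reaching 183 higher and 85 lower without 28 µM replicate 1, 105 and 175 without replicate 2, 68 and 149 without replicate 3, 69 and 89 without 42 µM replicate 1, 72 higher without 42 µM replicate 2, and 98 and 113 without 42 µM replicate 4. The median half-width of the 95% CI of a difference was 0.33, and 0.35 without replicate 4, so that steps smaller than this could not be resolved for a typical gene, and wider intervals, such as that of CHAC1 given later, also hold larger steps. The result of 0 calls does not show that the doses acted alike. What follows describes 57 gene lists, gathered into 12 groups, by their medians and counts beside the same counts over all genes, of which 54.7% lay higher at 42 µM in the mean (55.7% without replicate 4) and 45.3% lower (44.3%).

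The integrated stress response and amino acid genes were high at both doses, apart from 28 µM replicate 4. Over the 72 tested genes of the stress group, the median log2 change from DMSO was 0.82, 1.03, 0.85 and 0.13 on 28 µM replicates 1 to 4, and 1.05, 1.14, 0.83 and 0.92 on the 42 µM arrays. Replicate 4 of 28 µM alone was low, and the other 3 arrays of that dose lay within the range of the 42 µM arrays or at its lower edge. The median difference between doses was 0.30 with all arrays and 0.08 without replicate 4. Of the 72 genes 56 lay higher at 42 µM with all arrays and 50 without it, against the 54.7 and 55.7% of all genes. A straight line from DMSO through the doses would put 66.7% of the change at 42 µM at 28 µM. The median change at 28 µM was 70.5% of that at 42 µM with all arrays and 91.8% without replicate 4.

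**Figure D1:**
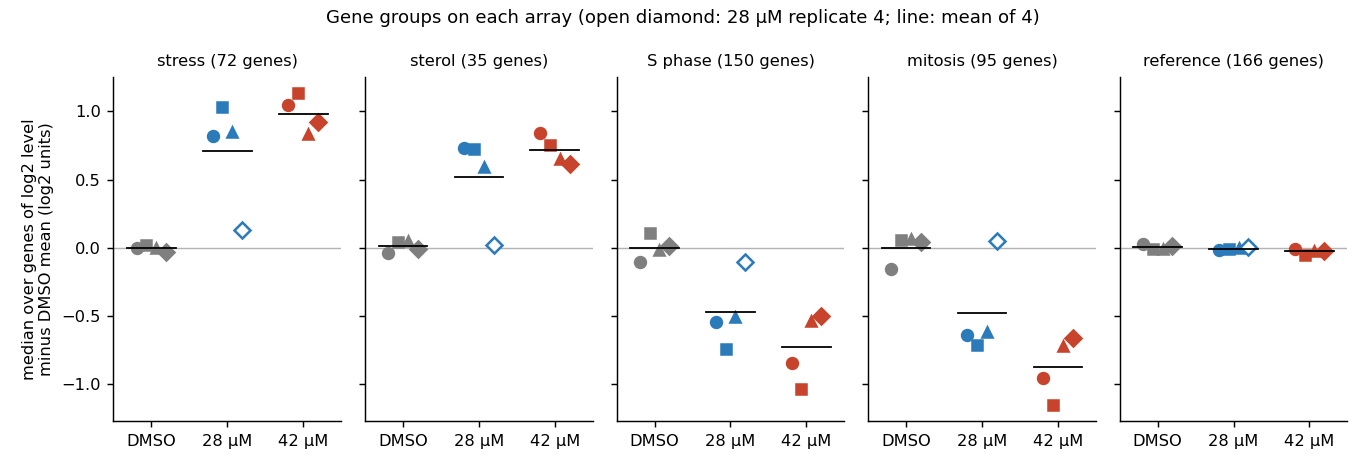
Median log2 change from the DMSO mean over the genes of 5 groups (panels, y axis) on each of the 12 arrays (points, by dose on the x axis, with lines for the mean of 4). Replicate 4 of 28 µM lies at 0.13 for stress and 0.05 for mitosis, near the DMSO arrays, while the other 28 µM arrays lie close to the 42 µM arrays for stress and sterol genes and mostly above them for mitotic genes.

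Within that group, the transcription factors and the effectors held the highest medians at 42 µM, and without 28 µM replicate 4 both were near that level at 28 µM. The median difference between doses was 0.53 for the 10 factors and 0.48 for the 15 effectors with all arrays, and 0.11 and 0.12 without replicate 4. CHAC1 (A_23_P14863, hg19 chr15:41248522-41248581) encodes an enzyme that degrades glutathione and is among the strongest targets of ATF4. Its log2 signal was 11.85, 11.48, 11.80 and 8.99 on 28 µM replicates 1 to 4 and 12.32, 12.44, 11.97 and 11.42 on the 42 µM ones. Apart from the low replicate 4, the doses overlapped, since 42 µM replicate 4 lay below all of 28 µM replicates 1 to 3. The difference was 1.01 (95% CI -0.09 to 2.11) with all arrays and, without replicate 4, 0.33 (95% CI -0.22 to 0.88).

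ATF3, a transcription factor induced by ATF4, showed a wider spread at the high dose only once 28 µM replicate 4 was left out. Its signal was 11.70, 11.49, 11.08 and 9.77 at 28 µM and 12.76, 12.09, 10.92 and 11.09 at 42 µM, so that 42 µM replicates 1 and 2 lay above every 28 µM array and replicates 3 and 4 did not. The differences without replicate 4 were 0.29 (95% CI -0.49 to 1.07) for ATF3, 0.22 (95% CI -0.43 to 0.88) for DDIT3, which encodes the pro-apoptotic factor CHOP, and 0.09 (95% CI -0.64 to 0.83) for the stress-induced chromatin protein NUPR1. DDIT3 had signals of 9.99, 9.85, 9.93 and 8.05 at 28 µM and 10.84, 10.56, 10.02 and 9.17 at 42 µM. As for ATF3, 42 µM replicates 1 and 2 were the highest, and here 42 µM replicate 4 lay below 28 µM replicates 1 to 3. ATF4 itself, whose product is controlled largely in translation, differed by 0.13 (95% CI -0.14 to 0.40), TRIB3, which encodes a pseudokinase in its feedback, by 0.13 (95% CI -0.32 to 0.59), and SESN2, for a sensor that restrains mTORC1, by 0.08 (95% CI -0.30 to 0.46). STC2, for a secreted glycoprotein, and PPP1R15A, for the subunit that directs dephosphorylation of eIF2α, differed by 0.29 (95% CI -0.14 to 0.72) and 0.43 (95% CI -0.13 to 0.99). All of these intervals included 0.

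Genes of amino acid synthesis had a median difference near 0 between the doses once 28 µM replicate 4 was left out, and transporters a small positive one. ASNS (A_23_P145694, hg19 chr7:97481461-97481520), asparagine synthetase, had the largest change from DMSO of its list. Its signal was 15.25, 15.12, 15.08 and 12.10 on 28 µM replicates 1 to 4 and 15.40, 15.22, 14.91 and 14.85 at 42 µM. Replicates 1 to 3 of 28 µM all lay inside the range of the 42 µM arrays, and replicate 4 stood at the DMSO level of 11.79 to 12.41. Without it the difference was -0.06 (95% CI -0.44 to 0.32), and that of PCK2, the mitochondrial enzyme that makes phosphoenolpyruvate, was -0.01 (95% CI -0.39 to 0.36). Over the 14 genes of serine, one-carbon, asparagine and proline synthesis the median difference was 0.17 with all arrays, with 9 genes higher at 42 µM, and -0.01 without replicate 4, with 6 higher. SHMT2, of mitochondrial one-carbon supply, carried a single low value, 9.61 on 42 µM replicate 3 against 13.34 to 14.52 on the other 42 µM arrays, and its difference of -1.07 came with a CI of -3.01 to 0.88.

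Among the 13 amino acid transporters the median difference was 0.20 with all arrays and 0.18 without replicate 4, with 11 and 9 of 13 higher at 42 µM. SLC3A2 (A_23_P87216, hg19 chr11:62656202-62656261) encodes the heavy chain shared by several of these carriers. It read 13.95, 14.07, 14.08 and 12.55 at 28 µM and 14.68, 14.84, 14.11 and 14.08 at 42 µM. Replicates 1 and 2 of 42 µM lay well above all 28 µM arrays, whereas replicates 3 and 4 lay level with the highest of them. The difference was 0.39 (95% CI 0.01 to 0.78) without replicate 4, an interval that just excluded 0 before adjustment over genes. SLC7A5, its leucine-transporting light chain, differed by 0.25 (95% CI -0.04 to 0.54). The 20 cytosolic tRNA synthetases lay higher by a median of 0.15 with all arrays and 0.04 without replicate 4, and the largest differences there were 0.37 (95% CI -0.29 to 1.04) for AARS1 and 0.30 (95% CI -0.07 to 0.67) for SARS1.

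Sterol genes had nearly the same median at both doses once 28 µM replicate 4 was left out. Over 35 genes of cholesterol synthesis, SREBP control and sterol efflux, the median change from DMSO was 0.73, 0.73, 0.59 and 0.02 on the 28 µM arrays and 0.84, 0.75, 0.65 and 0.61 on the 42 µM arrays. Without 28 µM replicate 4 the median difference was 0.04, with 19 of 35 genes higher at 42 µM, and with it 0.20, with 29 of 35 higher. Of the median change at 42 µM, 67.2% was present at 28 µM with all arrays, next to the 66.7% of the straight line, and 99.6% without replicate 4. For the 20 enzymes of cholesterol synthesis alone, 19 lay higher at 42 µM with all arrays, with a median of 0.20, and 10 lay higher and 10 lower once replicate 4 was left out, with a median of -0.01. INSIG1 (A_23_P22027, hg19 chr7:155100071-155100130), which retains SREBP in the endoplasmic reticulum and is itself an SREBP target, read 13.43, 13.23, 13.07 and 11.35 at 28 µM and 13.56, 13.31, 12.96 and 13.01 at 42 µM. Its 28 µM replicates 1 to 3 lay inside the range of the high dose, and replicate 4 lay below all DMSO arrays as well. The difference was -0.03 (95% CI -0.37 to 0.31) for INSIG1, 0.09 (95% CI -0.21 to 0.39) for LSS, which cyclises squalene epoxide to lanosterol, -0.18 (95% CI -0.81 to 0.46) for CYP51A1, the lanosterol demethylase, and -0.17 (95% CI -0.44 to 0.09) for IDI1, the isopentenyl diphosphate isomerase.

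The 6 tested genes of sterol efflux, which answer to LXR, had a median change from DMSO of -0.07 at 42 µM and a median difference of 0.01 between doses, or 0.02 without replicate 4. One of them, ABCG5, of the transporter that secretes sterols into bile, differed by 0.46 (95% CI 0.07 to 0.85). The 17 genes of fatty acid synthesis and desaturation differed by a median of 0.07 and 0.05. FASN, the fatty acid synthase, differed by 0.26 (95% CI -0.70 to 1.22), ACSS2, which makes acetyl-CoA from acetate, by 0.19 (95% CI -0.33 to 0.72), and ACSL3, which activates fatty acids, by -0.39 (95% CI -0.81 to 0.04). G0S2, an inhibitor of the lipase ATGL that was also higher than DMSO at 42 µM (by 1.24), differed between the doses by 0.25 (95% CI -0.17 to 0.67).

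**Figure D2:**
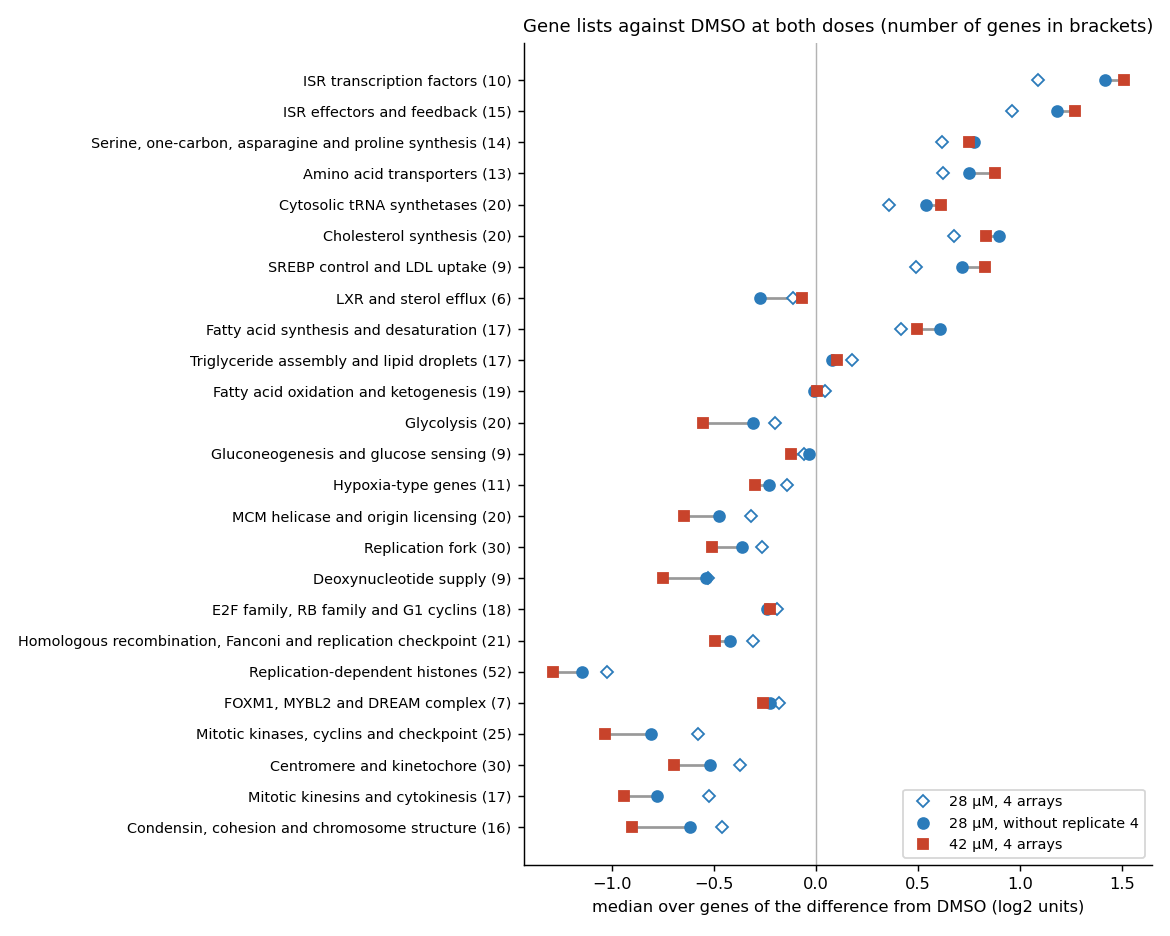
Median log2 difference from DMSO (x axis) of 25 gene lists (y axis, number of genes in brackets) at 42 µM (squares), at 28 µM without replicate 4 (filled circles) and at 28 µM with it (open diamonds), all against the same 4 DMSO arrays. Circle and square lie close for cholesterol synthesis, at 0.90 and 0.84, and farther apart for the mitotic kinases, at -0.81 and -1.03.

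Most replication genes lay lower in the mean at 42 µM than at 28 µM, none of them past the test. Over 150 genes of the S phase group the median change from DMSO was -0.55, -0.74, -0.51 and -0.10 on 28 µM replicates 1 to 4 and -0.85, -1.04, -0.54 and -0.51 on the 42 µM arrays. Replicates 1 and 2 of 42 µM were the lowest of all arrays, replicates 3 and 4 lay with 28 µM replicates 1 to 3, and the doses therefore overlapped. The median difference was -0.22 with all arrays and -0.13 without replicate 4. Of the 150 genes 133 lay lower at 42 µM with all arrays and 121 without replicate 4, against 45.3 and 44.3% of all genes. An unadjusted p below 0.05 in limma was met in this direction by 26 of 150 with all arrays and by 5 of 150 without it, beside 1.46 and 0.823% of all genes. Of the median change at 42 µM, 59.8% was present at 28 µM with all arrays and 75.1% without replicate 4, on opposite sides of the 66.7% of the straight line.

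Deoxynucleotide supply had the largest median difference between doses of the lists in this group, -0.37 with all arrays and -0.31 without replicate 4, with 9 and 8 of its 9 genes lower at 42 µM. RRM2 (A_24_P234196, hg19 chr2:10269374-10269433) encodes the small subunit of ribonucleotide reductase, made in S phase. Its signals were 9.85, 9.57, 9.52 and 10.57 at 28 µM and 8.54, 8.07, 9.60 and 9.72 at 42 µM, with 42 µM replicates 1 and 2 well below all other arrays and replicates 3 and 4 among the 28 µM arrays. The difference was -0.67 (95% CI -1.41 to 0.08) without replicate 4, and -0.90 (95% CI -1.64 to -0.16) with it. The 20 genes of the MCM helicase and origin licensing differed by a median of -0.17 without replicate 4, the 30 of the replication fork by -0.13, and the 21 of homologous recombination and the replication checkpoint by -0.13, and with all arrays these medians were -0.32, -0.28 and -0.20. The list of E2F and RB family members and G1 cyclins, which holds regulators rather than replication enzymes, differed by -0.11 with all arrays and -0.04 without replicate 4, with 14 and 11 of 18 lower. PCNA, the sliding clamp of the replication fork, differed by -0.44 (95% CI -0.94 to 0.06), CDC45, of the replicative helicase, by -0.40 (95% CI -0.86 to 0.06), and CCNE1, cyclin E1, by -0.04 (95% CI -0.41 to 0.33).

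EXO1 and the histones H1-1 and H2BC21 were members of this group whose intervals lay below 0 before adjustment over genes. EXO1 (A_23_P23303, hg19 chr1:242048717-242048776), an exonuclease of mismatch repair and end resection, read 8.68, 8.34, 8.61 and 9.29 at 28 µM and 7.76, 7.72, 8.24 and 8.34 at 42 µM. Its 42 µM replicate 4 equalled 28 µM replicate 2 at 2 decimals, and the other 42 µM arrays lay below every 28 µM array. The difference was -0.53 (95% CI -0.91 to -0.15) without replicate 4 and -0.71 (95% CI -1.15 to -0.28) with it. For H1-1 (A_23_P70448, hg19 chr6:26017351-26017410), 12.55, 12.92, 12.81 and 13.34 was measured at 28 µM and 11.54, 12.02, 12.53 and 12.42 at 42 µM. Each 42 µM array lay below each 28 µM array, the nearest pair by almost nothing, and the difference was -0.63 (95% CI -1.08 to -0.18) without replicate 4. The core histone H2BC21 read 10.65, 10.76, 11.42 and 12.02 at 28 µM and 10.36, 10.53, 10.21 and 10.42 at 42 µM. Its doses did not overlap either, and it differed by -0.56 (95% CI -1.0 to -0.12). EXO1, H1-1 and H2BC21 were picked among the members of largest difference in their lists. H1-1 and H2BC21 were also picked by a rule that asked for arrays apart in this way, as in 0.914% of all genes with all arrays. Over 52 replication-dependent histone genes the median was -0.19 with all arrays and -0.13 without replicate 4, with 43 of 52 lower in the first case and 43 in the second. Histone genes are near-identical in sequence, so a probe can report more than 1 of them.

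Mitotic genes had the largest median difference of the 12 groups, with and without replicate 4. The median change from DMSO over 95 genes was -0.64, -0.71, -0.62 and 0.05 on 28 µM replicates 1 to 4 and -0.96, -1.16, -0.72 and -0.66 on the 42 µM arrays. As for replication, 42 µM replicates 1 and 2 were lowest, and replicates 3 and 4 lay within or just below the range of 28 µM replicates 1 to 3. The median difference was -0.36 with all arrays and -0.19 without replicate 4. Lower at 42 µM were 89 of 95 genes with all arrays and 84 of 95 without it, beside 45.3 and 44.3% of all genes. An unadjusted limma p below 0.05 in this direction was met by 29 and 13 of 95, beside 1.46 and 0.823% of all genes. In 6 of the 95 genes all 4 arrays of 42 µM lay below 28 µM replicates 1 to 3, as in 1.29% of all genes. The change at 28 µM was 53% of that at 42 µM with all arrays, below the 66.7% of the straight line, and 76.3%, above it, without replicate 4.

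Of the 5 mitotic lists, 4 had medians of -0.19 or lower between the doses in both fits, and the list of FOXM1, MYBL2 and the DREAM complex lay nearer to 0. Without replicate 4 the median was -0.22 for 25 mitotic kinases, cyclins and checkpoint proteins, -0.19 for 30 centromere and kinetochore proteins, -0.25 for 17 kinesins and cytokinesis proteins and -0.22 for 16 proteins of condensin, cohesion and chromosome structure, and with all arrays -0.47, -0.32, -0.46 and -0.36. The regulators on the FOXM1, MYBL2 and DREAM list, 7 genes, differed by -0.08 with all arrays and -0.03 without replicate 4, and FOXM1 itself by 0.02 (95% CI -0.57 to 0.62). SKA3 (A_23_P340909, hg19 chr13:21728131-21728190), which helps couple kinetochores to microtubules, read 9.79, 9.74, 10.00 and 10.45 at 28 µM and 9.27, 9.18, 9.27 and 9.67 at 42 µM. Every 42 µM array lay below every 28 µM array, and the difference was -0.49 (95% CI -0.79 to -0.19) without replicate 4. SKA3 was picked by a rule that asked for arrays apart in this way, as in 0.914% of all genes with all arrays. CDK1 (A_23_P138507, hg19 chr10:62552004-62553650), the kinase that starts mitosis, read 11.02, 10.62, 10.57 and 11.50 at 28 µM and 10.31, 9.83, 10.29 and 10.70 at 42 µM. Replicate 4 of 42 µM overlapped the 28 µM arrays and the other 3 lay below them, a difference of -0.45 (95% CI -0.88 to -0.03).

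NUF2 and NDC80, subunits of the complex that grips microtubules at the kinetochore, differed by -0.43 (95% CI -0.76 to -0.09) and -0.28 (95% CI -0.57 to 0.00). KIF18A (A_23_P150667, hg19 chr11:28045342-28056937), a kinesin that limits the swing of chromosomes at metaphase, read 8.66, 8.91, 8.49 and 9.62 at 28 µM and 8.25, 7.24, 8.40 and 8.57 at 42 µM. One array of 42 µM, replicate 2, lay far below the rest, and the difference was -0.57 (95% CI -1.14 to 0.00). TOP2A, the topoisomerase that untangles sister chromatids, differed by -0.56 (95% CI -1.05 to -0.08), and its 42 µM arrays, at 10.18, 9.91, 9.94 and 10.28, all lay below the 28 µM arrays, whose lowest was 10.52. As for SKA3, the rule that picked TOP2A asked for such arrays. BIRC5, survivin, of the chromosomal passenger complex, fell by 1.21 against DMSO at 42 µM, and AURKA, a spindle kinase, stood -1.09 from DMSO with a limma adjusted p of 0.0567. Between doses they differed by -0.13 (95% CI -0.47 to 0.20) and -0.18 (95% CI -0.63 to 0.26). In bulk RNA, fewer cells in S phase or mitosis and less of these transcripts per cell cannot be told apart.

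**Figure D3:**
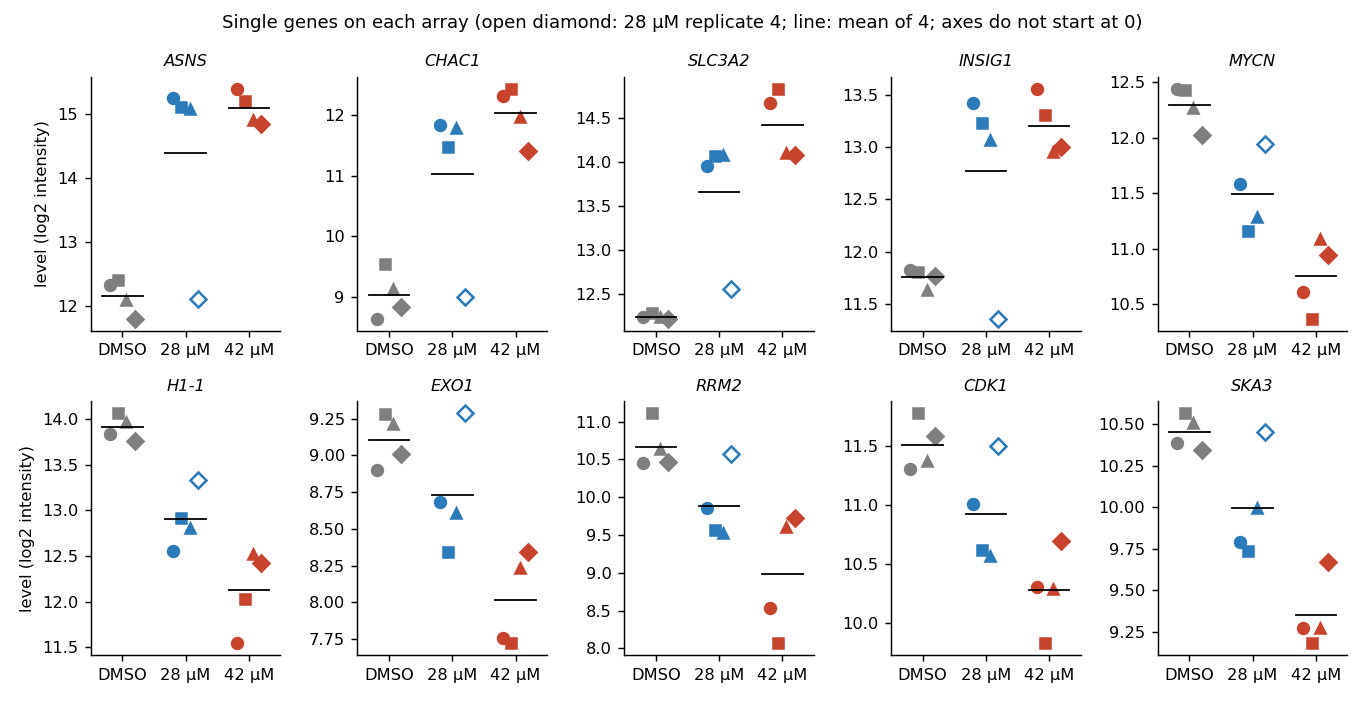
Normalized log2 signal (y axis) of 10 genes on each of the 12 arrays, 4 each of DMSO, 28 µM and 42 µM (points, by dose on the x axis, with lines for the mean of 4), 28 µM replicate 4 being the open diamond. For ASNS 28 µM replicates 1 to 3 lie at 15.08 to 15.25 and the 42 µM arrays at 14.85 to 15.40, while for SKA3 the 42 µM arrays, at 9.18 to 9.67, all lie below the lowest 28 µM array at 9.74. SKA3 was picked by a rule that asked for arrays that do not overlap.

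The arrays were hybridised on 5 slides, and 3 of these held both doses, so the comparison could be made inside a slide. On slides 2, 3 and 4, 1 array of each dose each, the median difference was 0.17, -0.06 and 0.93 for stress, 0.12, -0.12 and 0.81 for sterol, -0.30, 0.22 and -0.75 for S phase and -0.38, 0.09 and -1.21 for mitosis. Slide 4 holds 28 µM replicate 4 and gave the largest difference in each group. Slide 2 kept the direction of the pooled medians and slide 3 turned it in all 4 groups. With slide as a fixed block the medians were 0.32, 0.20, -0.28 and -0.46 with all arrays, and 0.06, 0.00, -0.13 and -0.24 without 28 µM replicate 4, in the same order. The lower level of the replication and mitotic groups at 42 µM was thus seen on slides 2 and 4 and not on slide 3.

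**Figure D4:**
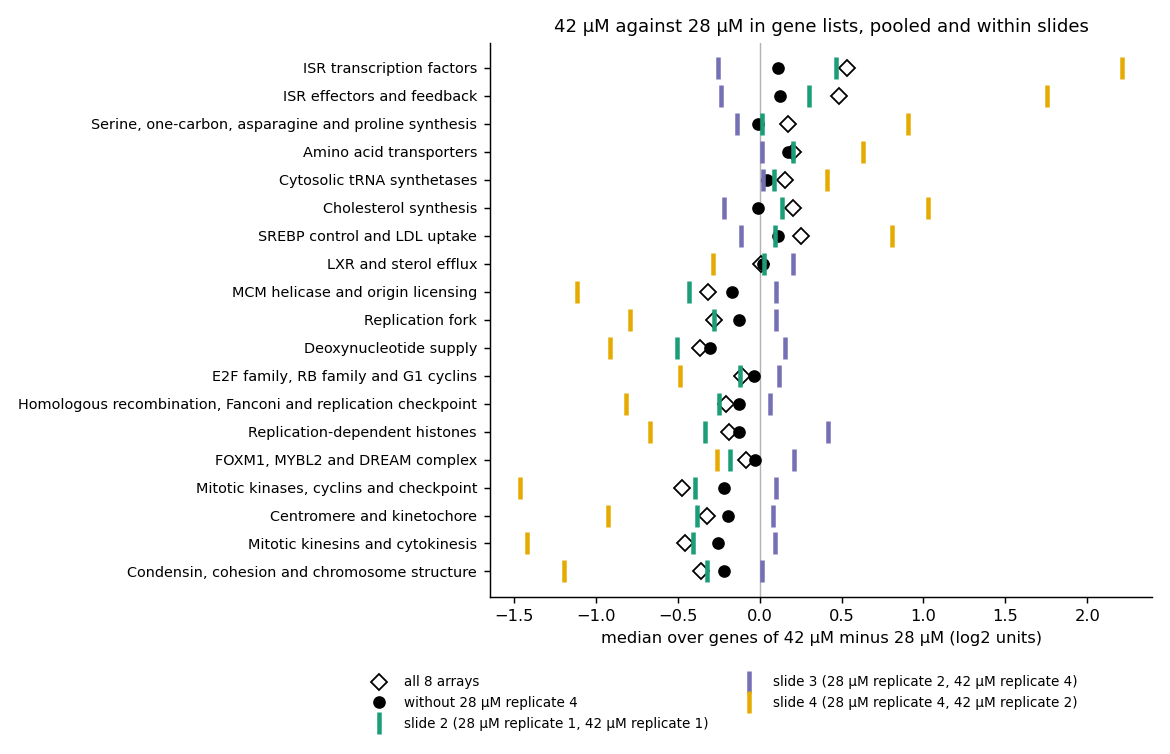
Median difference between doses, 42 minus 28 µM (x axis, log2), of 19 gene lists (y axis), pooled over all 8 arrays (open diamonds) or without 28 µM replicate 4 (filled circles), and within each of the 3 slides that held both doses (bars, 1 array of each dose). For the mitotic kinases slide 3 lies at 0.10, slide 2 at -0.39 and slide 4 at -1.46.

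The 40 carbohydrate genes differed between doses by a median of -0.11 with all arrays and -0.04 without replicate 4. Over 20 glycolytic genes the median difference was -0.18 with all arrays and -0.08 without replicate 4, with 18 and 14 of 20 lower at 42 µM. Of their 42 µM median 36.3% was present at 28 µM with all arrays and 55.9% without replicate 4, below the 66.7% of the straight line in both fits. LDHA, lactate dehydrogenase A, read 13.37, 13.81, 13.81 and 14.85 at 28 µM and 12.92, 13.13, 13.69 and 13.83 at 42 µM. Its 42 µM replicates 1 and 2 lay below all 28 µM arrays and replicates 3 and 4 among them, a difference of -0.27 (95% CI -0.79 to 0.25). The 87 genes of liver function differed by a median of -0.02, or -0.03 without replicate 4. ARG1, the arginase of the urea cycle, read 9.62, 9.47, 8.86 and 10.54 at 28 µM and 8.54, 8.24, 8.76 and 9.33 at 42 µM and differed by -0.60 (95% CI -1.22 to 0.02), and HP, the acute phase protein haptoglobin, fell by 2.08 against DMSO at 42 µM and differed between doses by -0.29 (95% CI -0.73 to 0.15). FABP1, the fatty acid binding protein of liver, differed by -0.44 (95% CI -0.93 to 0.05). TTR, transthyretin, was 12.41, 14.11, 13.35 and 14.52 at 28 µM and 13.91, 14.11 and 14.42 on 42 µM replicates 1, 3 and 4. Replicate 2 had no value there because the spot carried an outlier flag, so its difference with all arrays, 0.55 (95% CI -0.28 to 1.38), rests on 3 arrays of the high dose.

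The 74 growth regulators differed by a median of 0.03, and 0.06 without replicate 4. An unadjusted limma p below 0.05 was met by 0 of them as higher at 42 µM in both fits, and as lower by 4 with all arrays and 1 without replicate 4. Over all genes the shares were 1.12 and 1.07% as higher and 1.46 and 0.823% as lower. MYCN (A_24_P94402, hg19 chr2:16086767-16086826), a MYC family transcription factor, read 11.59, 11.16, 11.29 and 11.94 at 28 µM and 10.61, 10.37, 11.09 and 10.94 at 42 µM. All 42 µM arrays lay below all 28 µM arrays, and the difference was -0.59 (95% CI -0.99 to -0.19) without replicate 4. MYCN was picked by a rule that asked for such arrays, as in 0.914% of all genes with all arrays. MYC, its relative, was higher than DMSO at 42 µM by 1.20 and differed between doses by -0.08 (95% CI -0.53 to 0.37). DKK1, a secreted Wnt antagonist, read 9.91, 9.88, 10.06 and 11.43 at 28 µM and 8.60, 8.91, 9.97 and 10.18 at 42 µM. The first 2 arrays of 42 µM lay lowest and the others overlapped 28 µM, a difference of -0.53 (95% CI -1.25 to 0.18). AREG, an EGFR ligand that rose by 2.46 over DMSO, differed between doses by 0.08 (95% CI -0.69 to 0.84).

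Proteostasis, drug metabolism and p53 targets had medians near 0. The 119 genes of proteostasis differed by a median of 0.05, or 0.03 without replicate 4, and the 18 of xenobiotic metabolism by 0.05 and 0.00. Autophagy genes, 18 of 23 of which lay higher at 42 µM with and without replicate 4, had medians of 0.11 and 0.08. Cytosolic heat shock genes stood at -0.11 and -0.02, and chaperones of the endoplasmic reticulum at -0.01 and 0.01. NEU1, a lysosomal sialidase, read 13.28, 13.60, 13.30 and 11.43 at 28 µM and 13.28, 13.53, 13.42 and 13.47 at 42 µM, so that the arrays of both doses other than 28 µM replicate 4 shared one range, and it differed by 0.03 (95% CI -0.26 to 0.31). SQSTM1, the autophagy receptor p62, differed by 0.14 (95% CI -0.13 to 0.40), HERPUD1, of endoplasmic reticulum degradation, by 0.13 (95% CI -0.19 to 0.45), and CYP1A1, the main target of the aryl hydrocarbon receptor, by 0.00 (95% CI -0.66 to 0.66) after a rise of 3.41 over DMSO. The 27 p53 targets differed by a median of 0.00, and -0.03 without replicate 4, with 12 of 27 higher. CDKN1A, the cyclin-dependent kinase inhibitor p21, read 7.68, 7.82, 7.93 and 7.61 at 28 µM and 7.71, 7.98, 7.79 and 7.77 at 42 µM. The ranges overlapped and the difference was 0.00 (95% CI -0.24 to 0.25), an interval that leaves out steps of 0.3 in either direction. GADD45A, a growth arrest gene that ATF4 also controls, TNFRSF10B, the death receptor DR5, and BMF, a BH3-only protein, differed by 0.15 (95% CI -0.38 to 0.67), 0.15 (95% CI -0.10 to 0.40) and 0.40 (95% CI -0.12 to 0.93). CCNG1, cyclin G1, differed by -0.48 (95% CI -0.92 to -0.05).

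The reference group had a median near 0, although not all of its lists did. The 166 genes of ribosomal proteins, the respiratory chain, snoRNA hosts, proteasome and mitochondrial tRNA synthetases differed by a median of -0.03 with all arrays and -0.01 without replicate 4, and the per-array medians of that group lay between -0.02 and 0.00 from DMSO at 28 µM and between -0.05 and -0.01 at 42 µM. Within it the 31 proteasome subunits differed by -0.14 with all arrays, 27 of them lower at 42 µM, and by -0.02 without replicate 4, with 19 lower. The 16 mitochondrial tRNA synthetases differed by -0.08, with 14 lower, and by -0.03, with 11 lower. Over all 24167 genes the median difference was 0.02 with and without replicate 4.

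Of the single genes with the largest differences between doses, MRPS15, HNRNPH3, LMBRD2, CRHR1 and PCDH17 had no called change from DMSO at 42 µM. These genes and TUBA4A were picked for an unadjusted limma p below 0.05 and arrays that did not overlap, so both traits follow from the choice. Arrays did not overlap in 0.674% of all genes as higher and 0.914% as lower, and in 1.46 and 1.29% without replicate 4. MRPS15, of the mitochondrial ribosome, read 10.97, 7.93, 10.75 and 10.83 at 28 µM and 11.38, 11.57, 11.65 and 11.22 at 42 µM. Replicate 2 of 28 µM lay far below all other arrays, and the difference of 1.57 (95% CI 0.39 to 2.76) rested largely on it. HNRNPH3, for a splicing factor, read 8.12, 8.93, 9.14 and 7.58 at 28 µM and 8.09, 7.43, 7.11 and 7.52 at 42 µM. Its 28 µM replicates 1 to 3 lay above all 42 µM arrays and replicate 4 among them, and it differed by -1.19 (95% CI -1.92 to -0.46) without replicate 4 and -0.91 with it. LMBRD2 differed by 0.68 (95% CI 0.36 to 1.0) and CRHR1, the receptor for corticotropin-releasing hormone, by 0.80 (95% CI 0.31 to 1.29). PCDH17, a protocadherin, read 11.26, 11.26, 11.68 and 11.72 at 28 µM and 10.94, 11.23, 10.16 and 10.47 at 42 µM. All 42 µM arrays lay below all 28 µM arrays, replicates 3 and 4 by the widest margin, and the difference was -0.70 (95% CI -1.23 to -0.17). TUBA4A, an alpha-tubulin, differed by -0.41 (95% CI -0.76 to -0.06). For CAPRIN1 and FBXO34 no 42 µM array was well above background at the probe reported, which need not be the brightest of its gene, while 2 arrays of 28 µM were. Each 42 µM array was taken at the higher of its own signal and the lowest signal well above background. The 28 µM means were then 1.38-fold and 1.57-fold higher. All 28 µM arrays kept their own signal, dim or not, so these are not minimum folds. Neither difference was called (limma adjusted p 0.999612 for both).

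Departure from a straight line through DMSO, 28 and 42 µM was tested for every probe, as a direct question about plateaus. No probe departed from the line at a limma adjusted p below 0.05, 0 percent in either direction, with a smallest value of 0.999984 with all arrays and 0.718948 without 28 µM replicate 4. Before adjustment, 344 of 24167 genes (1.42%) lay above the line and 211 (0.873%) below it with all arrays, and 508 (2.1%) and 438 (1.81%) without replicate 4. The genes with the smallest p without it, chosen for that reason, were ASNS, PCK2 and NEU1, at -3.11, -2.84 and -2.03. The unit is 2 times the step from 28 to 42 µM less the step from DMSO to 28 µM, so that for these genes, which lay above DMSO, a negative value marks a smaller step at the top of the range than the line gives. CYP1A1 and STC2 stood at -3.41 and -2.17. With replicate 4 in the model the departure of ASNS was -0.82, so these values rest on leaving that array out. Even at -3.11, with a standard error of 0.47 without replicate 4, ASNS was not called. The result of 0 calls therefore does not show that levels followed a straight line.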

How the data were processed

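RNA of 12 HuH-7 cultures (4 DMSO, 4 at 28 µM and 4 at 42 µM SLMP53-2) was hybridised to 1-colour Agilent arrays. The deposited intensities are the mean brightness of each spot and of its local background, which the authors took from the scans with Agilent Feature Extraction, uncorrected. The deposited log2 table holds the values that the authors background-corrected by the Edwards method and quantile normalized in limma. Here the intensities were processed the same way in limma 3.58.1 (R 4.3.3). Spots of a probe were averaged, control spots and outlier flags were left out, and a probe was tested if well above background on at least 2 arrays of 1 condition. Of the gene spots on an array, 65.0 to 85.0% stood well above background at 28 µM and 71.3 to 78.5% at 42 µM, no gene spot was saturated, and the values correlated with the authors' log2 table at 0.999 or more on every array. One linear model with empirical Bayes variances covered all 12 arrays, and Benjamini-Hochberg adjustment ran over all 33467 probes, with the same model refitted without 28 µM replicate 4. The brightest tested probe stood for a gene. The p-values measure the spread between these samples. Of 41000 probes, 28078 were named by accession and 2910 by an updated or current symbol through RefSeq tables, and 10012 kept the name in the files. Positions of probes are hg19, from the files.

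The group and the gene lists were chosen with earlier results of these data known. Genes were named by rule, up to 10 of largest difference in each direction with arrays that did not overlap, in both fits, up to 2 of largest difference and 1 near-level responder in each list, and the genes the study measured in HuH-7 cells. Alternatives covered background correction, signal, scaling, filter, slide and replicate blocks, array weights, the limit on the difference and each array left out. The procedure was tested on simulated data with independent noise for each probe. These held no deviating array and no slide effect, so the simulation says nothing about either. Dates and operator entries were not used, and barcodes served only to tell which arrays shared a slide. The sequences came from RefSeq.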

Additional observations from a re-analysis of the deposited data

Results flagged for a closer look

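In 29 of 339 groups of 4 arrays examined, over the genes and list medians described here, 1 array stood apart, with the gap to its nearest fellow, as a share of the group's range, above Dixon's 95% limit for 4 values. For a single group taken at random, chance alone gives such a gap in about 1 in 20 cases, or 5 percent. The groups here share genes and arrays, and many genes were picked on these same arrays. The count was therefore not tested against that share. The array was 28 µM replicate 4 in 18 of the 29. At that array the gap was 0.946 of the range for ASNS, 0.941 for VEGFA, 0.925 for DDIT3, 0.919 for SHMT2, 0.915 for SLC3A2, 0.888 for DNAJA1, 0.883 for DKK1, 0.881 for PCK2, 0.871 for CHAC1, 0.856 for SESN2, 0.854 for NEU1 and 0.844 for LSS. It was 0.879 for the median of the mitotic group, 0.845 for the kinetochore list, 0.88 for the condensin and cohesion list, 0.875 for the effectors of the integrated stress response, 0.891 for the proteasome subunits and 0.835 for the replication fork.

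At other arrays the gap was 0.898 for ACSS2 and 0.862 for SARS1 on 42 µM replicate 2, 0.884 for FASN on 42 µM replicate 1, 0.998 for SLC16A3 on 42 µM replicate 3, and 0.929 for MRPS15 on 28 µM replicate 2. Among list medians it was 0.901 for proteostasis genes on 28 µM replicate 3, 0.854 for NRF2 targets on 28 µM replicate 1, 0.871 for the oncofetal and plasma carriers on 42 µM replicate 4, and, on 42 µM replicate 1, 0.892 for the E2F and RB family list, 0.863 for the MYC and MAX network and 0.851 for the proteasome subunits.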

How the results depend on the processing

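There were 0 genes called between 42 and 28 µM in each of 34 fits, with a smallest limma adjusted p between 0.913 and 1.0. Departure from the dose line was tested in 28 of these fits, with 0 called and a smallest adjusted p between 0.705 and 1.0. The counts of genes at least 0.6 apart at an unadjusted p below 0.05, 38 higher and 55 lower, became 252 and 340 with the processed signal and quantile normalization, also rose with that signal scaled to its 75th percentile (280 lower), and ranged from 34 to 183 higher and 39 to 175 lower when 1 array was left out. The stress, sterol, S phase and mitotic medians kept their sign in every setting, ranging from 0.04 to 0.40, 0.00 to 0.32, -0.32 to -0.11 and -0.47 to -0.18. The lowest sterol median was 0.0018, with slide as a block and 28 µM replicate 4 left out. It lay below the median of 0.030 over all genes in that setting.

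Of the 12 group medians, only those of the reference and fatty acid groups moved beyond the spread between arrays, and all of these values lay near 0. That spread included 28 µM replicate 4 and was 0.30 for stress, 0.25 for sterol and 0.30 for mitosis. Shifts on leaving that array out therefore stayed inside it, from 0.30 to 0.08 for stress, 0.20 to 0.04 for sterol and -0.36 to -0.19 for mitosis. Staying inside this spread does not show that these medians were stable. The reference median of -0.0258 was 0.00401 with the processed signal scaled to its 75th percentile, -0.000233 with the same scaling of the Edwards values, -0.0447 in the authors' values, -0.0106 when normalized without 28 µM replicate 4, -0.00626 as the mean over probes of a gene, and, in settings chosen after the data were seen, 0.00631 with slide as a block and replicate 4 left out, 0.000699 with that scaling and replicate 4 left out, and -0.00814 without 28 µM replicates 1 and 4. The fatty acid median was -0.0704 in the last setting. TTR, with no value on 1 array here, turned from 0.55 to -0.36 in the authors' values. The causes were not tested. The 4 arrays of a dose limited the precision, with a median half-width of the CI of 0.33.

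With the replicate number as a block, 57 genes were higher and 72 lower at the unadjusted limit, and 66 and 49 without 28 µM replicate 4, with 0 called. The deviations of same-numbered arrays of the doses from their group means correlated at 0.617, -0.0692, 0.288 and 0.309. Those of differently numbered arrays correlated at -0.595 to 0.314. The arrays numbered 1 also shared slide 2, so number and slide cannot be told apart there. The labels do not say what a number marks, and the numbers were not taken as pairs.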
